A study of Mus musculus with 69 samples.

Results

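The regions described here are narrow H3K79me2 peaks that lay in gene bodies and stood in the peak list of mice exposed to early life stress (ELS) with no counterpart in the list of mice reared under standard conditions. A peak was taken when the authors' annotation gave it a gene-body line and no promoter-class line, when it was under 5000 bp wide, and when it shared no base with any Standard peak. By this rule 7828 of the 106374 distinct ELS peaks were taken, 7.36% of the list and 9.71% of its 80636 narrow gene-body peaks. They are called ELS-only peaks below. The other 72808 narrow gene-body ELS peaks overlapped a Standard peak and are called shared. The mirror set, 34109 narrow gene-body Standard peaks with no ELS counterpart, is called Standard-only. Membership was thus chosen by the peak calls and widths in the 2 lists, so the sets' sizes, widths, folds and positions are a description and were not tested.

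The tissue was the nucleus accumbens of male mice. H3K79me2 was profiled by chromatin immunoprecipitation (ChIP), with 9 labelled libraries per rearing group from animals whose genotype is not given. The authors deposited 1 peak list per rearing group (Standard, 117819 distinct peaks, and ELS), so the lists have no replicates. RNA came from other libraries, 8 in each of 4 groups: Standard GFP and ELS GFP, which differ in rearing and share the GFP control, Standard Dot1l overexpression, and ELS Dot1l knockdown. The sources used here do not give the delivery of GFP or the Dot1l constructs, the cells that received them, or the animals' age and strain. Nor do they state that libraries came from separate animals, so p-values measure the spread between libraries, which may be technical.

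H3K79me2 is dimethylation of lysine 79 of histone H3, a residue on the surface of the nucleosome. It is placed by DOT1L, a methyltransferase recruited with complexes that promote transcriptional elongation, and it usually lies over the transcribed body of active genes, strongest near their start. The nucleus accumbens is the ventral part of the striatum, involved in reward and motivation, and most of its neurons are medium spiny neurons that respond to dopamine.

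Bases inside ELS-only peaks could be read where a peak lay on a window around a RefSeq gene start (250 bases before to 50 after, build GRCm38.p6). Of 32851 such windows, 10 met an ELS-only peak. The share of ELS-only peaks on a window was 0.128%, beside 0.235% of shared and 0.106% of Standard-only peaks. The rule had already removed peaks with a promoter-class line. The 4 windows below are shown because they hold the longest stretches of ELS-only peak (Gm31253, Gm32721, Pfkm) or an internal start of a gene with many ELS-only peaks (Zfp385b). They are printed 5′ to 3′ on the gene's own strand, with the bases inside the peak in capitals, if peak starts are counted from 0.
Zfp385b: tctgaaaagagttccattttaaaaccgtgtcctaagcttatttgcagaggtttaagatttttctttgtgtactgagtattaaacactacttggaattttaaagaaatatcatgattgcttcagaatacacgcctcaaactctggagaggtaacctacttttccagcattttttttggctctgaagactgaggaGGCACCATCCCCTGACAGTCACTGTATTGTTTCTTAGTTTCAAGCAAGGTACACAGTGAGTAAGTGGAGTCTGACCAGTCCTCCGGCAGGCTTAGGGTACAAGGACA
Pfkm: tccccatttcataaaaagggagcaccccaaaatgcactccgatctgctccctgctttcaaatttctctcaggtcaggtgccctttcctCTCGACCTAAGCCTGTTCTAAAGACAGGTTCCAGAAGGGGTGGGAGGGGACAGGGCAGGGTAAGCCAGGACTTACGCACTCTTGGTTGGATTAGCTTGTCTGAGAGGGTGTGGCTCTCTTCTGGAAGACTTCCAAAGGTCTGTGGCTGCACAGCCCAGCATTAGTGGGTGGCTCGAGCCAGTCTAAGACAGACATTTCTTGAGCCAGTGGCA
Gm31253: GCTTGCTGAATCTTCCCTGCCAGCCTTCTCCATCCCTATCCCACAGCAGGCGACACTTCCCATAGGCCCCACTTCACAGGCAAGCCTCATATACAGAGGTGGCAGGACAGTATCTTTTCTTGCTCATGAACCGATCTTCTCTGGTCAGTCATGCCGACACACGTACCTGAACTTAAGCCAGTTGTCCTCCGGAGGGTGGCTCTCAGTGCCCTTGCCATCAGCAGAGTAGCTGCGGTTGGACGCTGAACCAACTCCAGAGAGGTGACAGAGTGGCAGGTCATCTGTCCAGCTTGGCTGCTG
Gm32721: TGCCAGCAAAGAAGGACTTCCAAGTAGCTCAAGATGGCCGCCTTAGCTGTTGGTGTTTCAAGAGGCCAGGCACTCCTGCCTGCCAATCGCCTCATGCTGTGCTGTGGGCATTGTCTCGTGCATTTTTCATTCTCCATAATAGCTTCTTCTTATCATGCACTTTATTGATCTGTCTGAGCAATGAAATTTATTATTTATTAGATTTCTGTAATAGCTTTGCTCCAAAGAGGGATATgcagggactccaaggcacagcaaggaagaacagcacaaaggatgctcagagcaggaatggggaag

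The Zfp385b window (chr2:77621365-77621664, minus strand) belongs to a zinc finger gene with 23 ELS-only peaks. The peak on it had a fold of 1.90 over a background that is not stated, and 107 of the 300 bases lay inside it. The Pfkm window (chr15:98111810-98112109, plus strand; muscle phosphofructokinase, a glycolytic enzyme) had 212 bases inside a peak of fold 1.83. The Gm31253 window (chr15:80148230-80148529, minus strand) lay inside Tab1, an adaptor of the kinase TAK1, and was covered over its whole length by a peak of fold 1.88 that ended 19 bp from a Standard peak. The Gm32721 window (chr3:153589696-153589995, plus strand) lay inside St6galnac3, a sialyltransferase gene, with 235 bases in a peak of fold 1.56. GC content of these 4 windows was 40.7%, 53.0%, 55.7% and 45.7% in the order printed, around the median of 52.7% over all windows. The 10 windows were searched on both strands for 5 motifs. The TATA box TATAAA is held by 13.6% of all windows, the GC box GGGCGG by 35.7%, the E-box CACGTG by 7.15%, the AP-1 motif TGACTCA by 5.20% and the CRE motif TGACGTCA by 1.79%. The TATA box and the GC box were found in 1 of the 10 windows (Gm39241, in Wwp2), and the other motifs in none. None of the 1005 RefSeq miRNA hairpins overlapped an ELS-only peak.

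ELS-only peaks were narrow and weak. Their median width was 253 bp, with quartiles of 211 and 320 bp, beside 513 bp for shared and 304 bp for Standard-only peaks. The narrowest was 181 bp, which was also the narrowest peak of the whole ELS list. The 3 widest lay in Pitpnc1 (a phosphatidylinositol transfer protein; 1245 bp), Rasal2 (a Ras GTPase-activating protein; 1039 bp) and Grid1 (the glutamate receptor delta 1; 1033 bp), so no ELS-only peak came near the limit of 5000 bp, and 0 otherwise matching peaks lay above it. Together ELS-only peaks covered 2213 kb and Standard-only peaks 12345 kb.

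Fold enrichment is the authors' own value for a peak. Its median was 1.76 in ELS-only peaks, with a range of 1.39 to 2.64, beside 1.95 in shared and 1.82 in Standard-only peaks. Of the ELS-only peaks 88.0% lay below the median of the whole ELS list (1.92), against 44.9% of shared peaks. Only 293 (3.74%) had a fold above 2, against 39.9% of shared and 11.6% of Standard-only peaks. The q-value was above 0.001 in 45.5% of ELS-only peaks, 14.4% of shared and 33.6% of Standard-only peaks. The folds took 200 distinct values among the 7828 peaks. The 3 most common were 1.72 (582 peaks), 1.74 (574 peaks) and 1.76 (572 peaks), each about 0.023 above the next lower common value, so small differences between 2 peaks' folds are single steps of this scale.

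**Figure D1:**
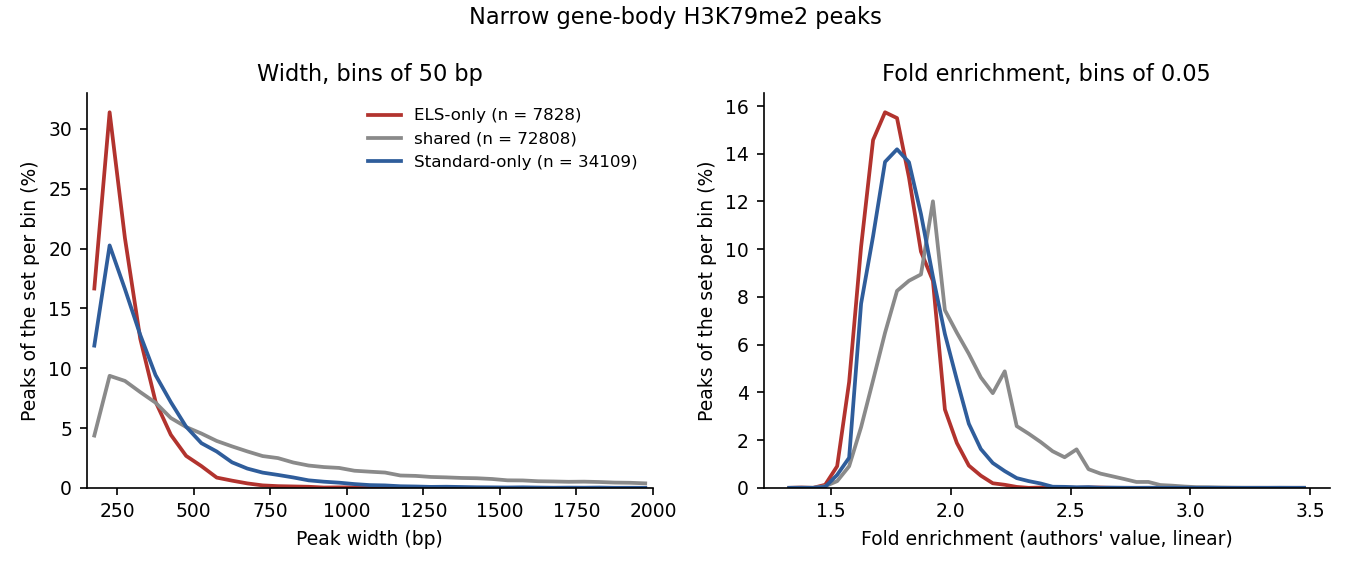
Width (left, in bp, bins of 50 bp, shown to 2000 bp) and fold enrichment (right, the authors' linear value, bins of 0.05) of ELS-only, shared and Standard-only narrow gene-body peaks, as a percentage of each set. The ELS-only curve lies to the left of the other curves in both panels, with medians of 253 bp and 1.76.

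ELS-only peaks lay close to Standard peaks. The median gap to the nearest Standard peak of any class was 509 bp, with quartiles of 211 and 1380 bp. The gap was at most 200 bp for 1881 peaks (24.0%), at most 1000 bp for 5359 (68.5%) and at most 5000 bp for 7165 (91.5%). On both sides a Standard peak lay within 1000 bp of 2307 peaks (29.5%) and within 5000 bp of 5188 (66.3%). Standard-only peaks lay farther from the ELS list, which holds fewer peaks: their median gap was 911 bp and 52.8% lay within 1000 bp. The nearest Standard peak was itself modest, with a median width of 372 bp and a median fold of 1.84, and 43.7% of these neighbours overlapped an ELS peak.

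Most ELS-only peaks stood alone between neighbouring Standard peaks. This was so for 6219 of them (79.4%), while 4.71% stood in runs of 3 or more with no Standard peak in between. Of Standard-only peaks 34.4% stood alone between ELS peaks and 40.7% stood in such runs, the longest of 19 peaks. The longest ELS-only run held 7 peaks over 372 kb of Cntn5 (contactin 5, a neuronal adhesion molecule; chr9:10502770-10875039). Next were 6 peaks over 20.2 kb of Ntm (chr9:29651872-29672069), 5 peaks over 16.6 kb of Astn2 (astrotactin 2, a neuronal membrane protein; chr4:66382230-66398818) and 5 peaks over 14.0 kb of Sorcs2 (chr5:36284596-36298572).

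At the edge of the rule, 8 ELS-only peaks touched a Standard peak end to end with a gap of 0 bp. Among them were peaks in Tmem194 (fold 1.62), Fam172a (1.67) and Zfp804a (2.20). On the other side of the rule, peaks in Nmnat2 (fold 2.16), Mpzl1 (1.99) and Tet1 (1.76) shared 1 bp with a Standard peak and were left out. At the far end, a peak in 6030498E09Rik on chromosome X lay 3305058 bp from the nearest Standard peak, 1 in Slitrk1 (a synaptic adhesion protein) 2768436 bp and 1 in Fign (a microtubule-severing protein) 907538 bp.

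Within genes, ELS-only peaks lay farther along than shared peaks and where Standard-only peaks lay. The median position was 39.2% of the gene's length from its start, against 30.9% for shared and 38.9% for Standard-only peaks. The median distance from the start was 62564 bp, against 38809 and 59318 bp. Beyond 50% of the gene's length lay 36.4% of ELS-only, 26.0% of shared and 36.1% of Standard-only peaks. The annotation does not say whether a gene-body peak is exonic or intronic, and its gene-body class begins about 3 kb from the start, the nearest ELS-only peak lying 3036 bp from it.

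**Figure D2:**
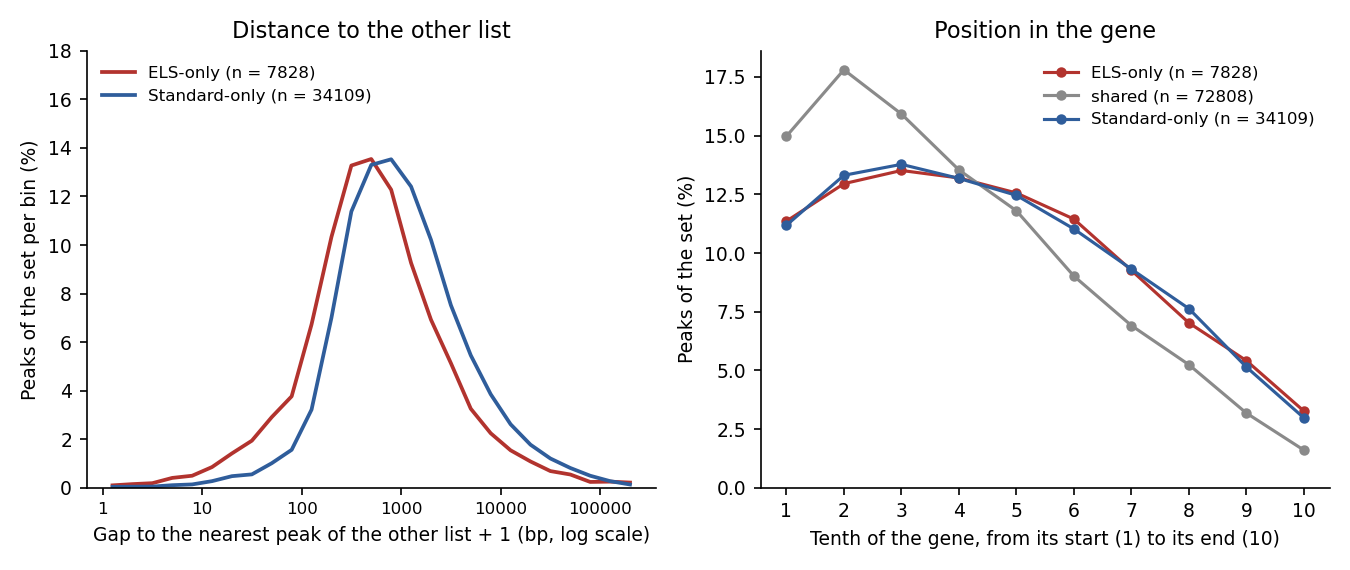
Left, the gap from ELS-only peaks to the nearest Standard peak and from Standard-only peaks to the nearest ELS peak (bp + 1, log scale, percentage of each set per bin; the few gaps beyond the axis are not drawn). Right, the percentage of each set in each of 10 equal sections of the gene. ELS-only gaps are shorter (median 509 against 911 bp), and the ELS-only and Standard-only position curves run together, below the shared curve in the first sections and above it in the last.

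Chromosomes differed little. For every 100 Standard-only peaks there were 22.9 ELS-only peaks over the genome, and from 19.3 (chromosome 3) to 26.0 (chromosome 8) on the autosomes. Chromosome X held 4 ELS-only, 7 shared and 91 Standard-only peaks, 4.4 ELS-only per 100. Of its few narrow gene-body ELS peaks 36.4% were ELS-only, against 7.95% (chromosome 19) to 10.6% (chromosome 1) on the autosomes.

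The 10 peaks with the highest fold were spread over 10 genes of unlike function. The highest lay in Ccny (cyclin Y, an activator of a membrane-bound cyclin-dependent kinase; chr18:9425721-9425946, minus-strand gene) with a fold of 2.64 over 225 bp, between Standard peaks 521 and 181 bp away. Next was Ncoa7 (a nuclear receptor coactivator; chr10:30777205-30777434) with 2.57 over 229 bp and Standard peaks 401 and 555 bp away. St3gal4 (a sialyltransferase; chr9:35091082-35091269) had 2.46 and Grm5 (the metabotropic glutamate receptor 5; chr7:87995684-87995865) 2.41. The Grm5 peak, at 74.7% of the gene, had the smallest width in the list, 181 bp, and the widest of the 10, in Dixdc1, had 425 bp.
Bre (a subunit of the BRCA1-A complex) had 2.36, Pou2f1 (the octamer-binding factor Oct-1) 2.29, Rock1 (a protein kinase) and Plcb1 (phospholipase C beta 1) 2.27 each, and Mbnl1 (a splicing regulator) and Dixdc1 (a Wnt pathway protein) 2.25 each. For 8 of the 10 a Standard peak lay within 500 bp; the exceptions were Grm5 (2146 bp) and Bre (1437 bp).

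A total of 2928 genes held an ELS-only peak, 42.7% of the 6862 genes with a gene-body line in the ELS list. Of these, 2792 were protein-coding, 40 were lincRNA genes and 96 were of other types. In 1507 genes there was 1 ELS-only peak, 447 genes had 5 or more and 134 had 10 or more, and these 134 held 28.3% of all ELS-only peaks. A Standard-only peak was also present in 88.5% of the genes. On 2 or more genes lay 320 of the peaks, which are counted once per gene in what follows.

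The number of peaks followed gene length. Genes with an ELS-only peak had a median length of 83381 bp, against 26753 bp for the other genes with an ELS gene-body line. Across the 6862 genes the number of ELS-only peaks and gene length had a Spearman rho of 0.57. Of genes under 30 kb 19.4% held an ELS-only peak, of genes from 30 to 100 kb 44.3%, of genes from 100 to 300 kb 77.6% and of genes of 300 kb or longer 92.9%. Per 100 kb of gene the density was nearly flat, at 1.38, 1.22, 1.53 and 1.37 peaks. For every 100 Standard-only peaks there were 28.5, 22.1, 22.8 and 24.8 ELS-only peaks in these 4 classes.

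Ntm stood apart. This gene (ENSMUSG00000059974; chr9:28994750-29963129, minus strand) encodes neurotrimin, a lipid-anchored adhesion molecule of the IgLON family on neurons. It held 75 ELS-only peaks, beside 84 shared and 60 Standard-only peaks, and 7.74 ELS-only peaks per 100 kb. With the gene cut into 10 equal sections from its start, sections 1 to 4 held 21, 13, 4 and 8 of the ELS-only peaks and sections 7 and 8 held 12 and 14, while sections 5 and 9 held 2 and 1 and the others none. Sections 1 to 4 also held 13, 10, 0 and 3 Standard-only peaks, and sections 7 and 8 held 18 and 7. Of shared peaks, section 1 held 24 and sections 6 to 8 held 22, 20 and 11. The ELS-only peaks of Ntm had a median width of 285 bp and a median fold of 1.76, as in the whole set for fold, but the gaps were longer: the median was 1139 bp and 32 of 75 lay within 1000 bp of a Standard peak.

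Sorcs2 (ENSMUSG00000029093; chr5, minus strand), a sorting receptor of the Vps10 family, held 33 ELS-only, 39 shared and 31 Standard-only peaks, with 8.66 ELS-only peaks per 100 kb. Section 3 of 10 held 14 of the 33. The median fold was 1.74, the highest 1.92, and the median gap 688 bp.

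**Figure D3:**
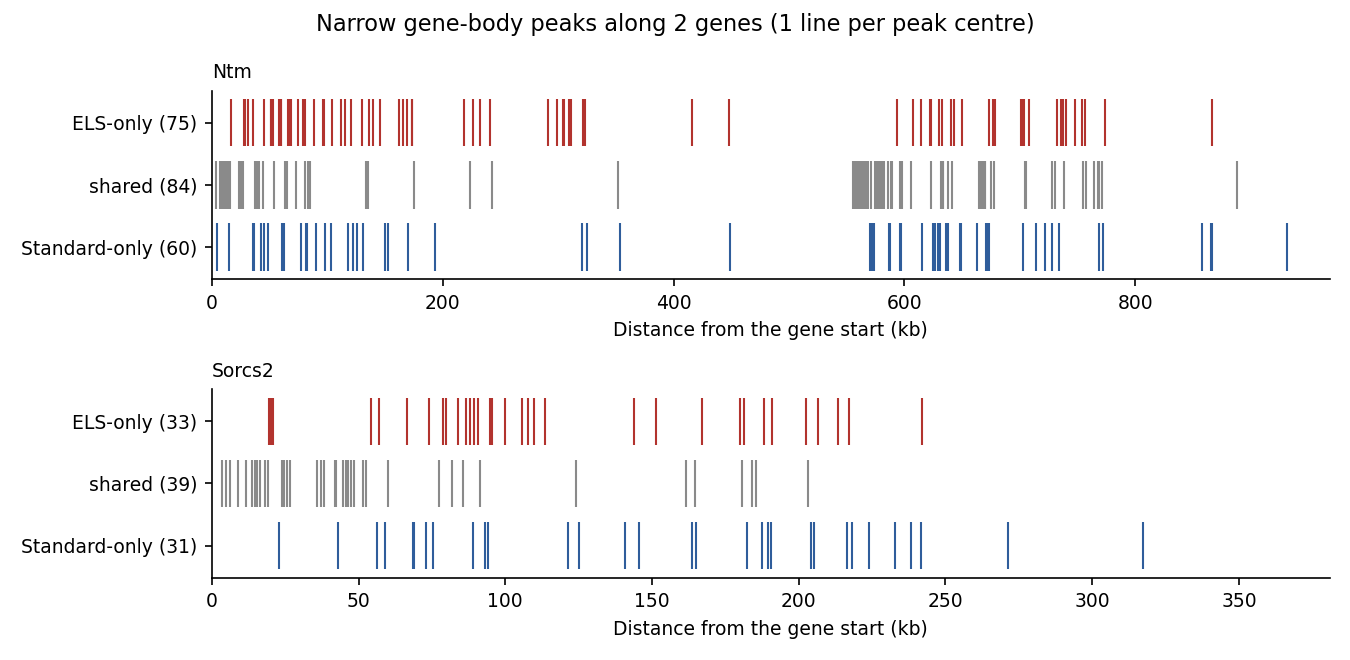
Positions of ELS-only, shared and Standard-only narrow peaks along Ntm and Sorcs2, in kb from the gene start, 1 line per peak. In Ntm most of the 75 ELS-only peaks lie in 2 stretches, sections 1 to 4 and 7 to 8 of 10, as do most Standard-only peaks. In Sorcs2 the 33 ELS-only peaks lie in sections 1 to 7.

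Among the 1101 genes with 10 or more peaks of either list alone, ELS-only peaks were the more numerous in 7 and absent in 61, and the median gene had 21.2 ELS-only per 100 Standard-only peaks. The 7 genes were Ntm (75 against 60), Sorcs2 (33 against 31), Sdk2 (8 against 7; sidekick 2, a synaptic adhesion molecule), Gramd1b (7 against 6; a sterol transporter), Ptchd4 (7 against 5; a patched-domain protein), Btd (6 against 5; biotinidase) and Lrp12 (6 against 5; a lipoprotein receptor relative). In the last 5 the margin was 1 or 2 peaks. Astn2, with 7 ELS-only and 0 Standard-only peaks, was below the minimum of 10.

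The other genes with most ELS-only peaks were very long and held far more Standard-only peaks. Csmd1, a large transmembrane protein with complement-like domains, held 53 ELS-only and 174 Standard-only peaks over 1642744 bp of gene. Celf2, a regulator of splicing, held 32 against 128, Dlgap2, a postsynaptic scaffold, 30 against 117, and Dlg2, the scaffold PSD-93, 29 against 206. Slit3, an axon guidance ligand, came nearer to balance, with 31 against 53. Foxp1, a transcription factor of striatal neurons, held 29 against 94, Ctnnd2, delta-catenin of the synapse, 27 against 111, and Gm20388, a read-through gene model that spans several genes, 29 against 77.

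**Figure D4:**
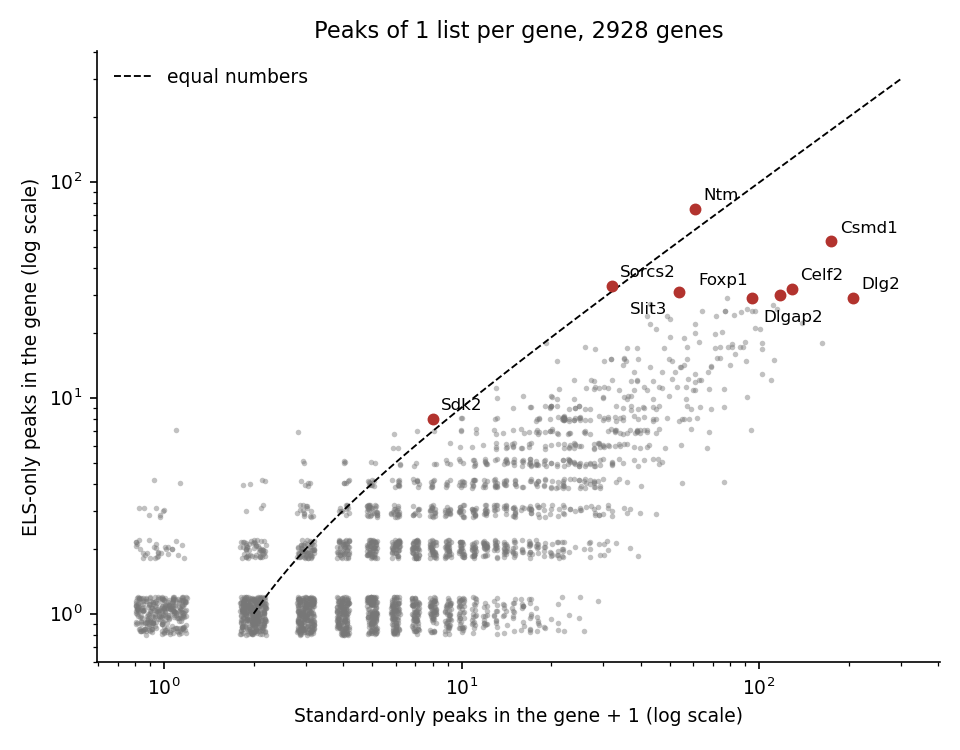
ELS-only against Standard-only peaks per gene for the 2928 genes with an ELS-only peak (both axes log scale, Standard-only counts + 1, points shifted slightly at random). The dashed line marks equal numbers. Most genes with many peaks lie below it, and Ntm (75 against 60) and Sorcs2 (33 against 31) lie above.

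Gene groups are given here by the share of their genes with an ELS-only peak, beside the 42.7% over all genes with an ELS gene-body line, and by their Standard-only peaks, beside the 22.9 ELS-only per 100 Standard-only peaks over the genome. Of 33 synaptic adhesion genes with such a line, 29 (87.9%) held 390 ELS-only peaks, beside 1501 Standard-only peaks in the list, led by Ntm and Csmd1 and followed by Tenm4 (25 peaks) and Tenm2 (24), which are teneurins, and Nrxn3 (22), a neurexin. Of 16 glutamate receptor genes 14 (87.5%) held 148 peaks, beside 648 Standard-only: Grm7 22, Grid1 21, Grin2a (an NMDA receptor subunit) 19 and Grm5 17. Of 14 postsynaptic scaffolds 11 (78.6%) held 114 peaks, beside 594 Standard-only. Of 13 genes for GABA receptors and GABA synthesis 7 (53.8%) held 55 peaks, beside 250 Standard-only, and Gabrg3 held 24 of the 55.

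Channels and signalling enzymes followed. Of 21 potassium channel genes 16 held 128 peaks, with 25 in Kcnd2 (the A-type channel Kv4.2) and 20 in Kcnma1 (the BK channel). Of 17 calcium and sodium channel genes 15 held 100 peaks, with 17 in Cacna2d3. Of 13 phosphodiesterase genes 10 held 55, with 24 in Pde4b, which degrades cyclic AMP. Of 22 axon guidance genes 18 held 116, and of 16 genes of presynaptic release 10 held 68, of which Rims1 and Syt1 (the calcium sensor synaptotagmin 1) held 17 each. In the order given, the shares with an ELS-only peak were 76.2%, 88.2%, 76.9%, 81.8% and 62.5%. Standard-only peaks in these lists numbered 485, 471, 229, 602 and 320.

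Of the lists for chromatin and ubiquitin ligases, from 44.0% to 52.6% of genes held an ELS-only peak. Of 19 partners of DOT1L and elongation factors 10 held 41 peaks, of which Aff3 held 22 and Mllt10, a direct partner of DOT1L, 5. Dot1l (ENSMUSG00000061589) held 0 ELS-only peaks. Of 23 histone lysine methyltransferases and demethylases 11 held 13 peaks, and of 25 ubiquitin ligases 11 held 44. Of 6 genes of the glucocorticoid response 3 held 19 peaks: the mineralocorticoid receptor gene Nr3c2 held 17, Fkbp5, a cochaperone of the glucocorticoid receptor, 1 and Errfi1 1. The 1 immediate early gene with an ELS gene-body line held none. Standard-only peaks numbered 136 in the list of DOT1L partners and elongation factors and 109 in that of methyltransferases and demethylases. The ubiquitin ligases held 180 and the glucocorticoid list 67. No length was taken into account in these counts.

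Few of the cell type markers had a gene-body line in the ELS list. Of 12 marker genes shared by medium spiny neurons with an ELS gene-body line, 11 held 52 ELS-only peaks, beside 249 Standard-only peaks in the list. Of the 52, Foxp1 held 29, Meis2 6 and Pde10a 5, whose highest had a fold of 2.11. Both D2-type markers with such a line, Grik3 and Ptprm, held 10 peaks each, and the 1 D1-type marker held none. In astrocytes Slc1a2 (the glial glutamate transporter), in oligodendrocytes Mbp (myelin basic protein) and in their precursors Vcan (versican) held 1, 3 and 1 peaks. Markers of microglia held none in 2 genes with a line, and markers of interneurons, endothelial cells and cortical excitatory neurons had no ELS gene-body line.

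In 52 genes (1.78%) an ELS-only peak was present while the Standard list had no line of any class. The 10 with the highest fold were 6530403H02Rik (2.06, chr3:120874836-120875205), 1700095A21Rik (2.06), 0610011F06Rik and Tbc1d1 (1.99 each; Tbc1d1 acts in glucose transporter traffic), Snx8 (1.97, a sorting nexin), Alg6, Fstl5, Slitrk1 and Stk3 (1.90 each; Stk3 is the Hippo kinase MST2) and Bach2os (1.88). Each of these genes held 1 ELS-only peak except 0610011F06Rik, which held 2. The 0610011F06Rik peak of fold 1.99 lay at 103.3% of the gene's length, past its annotated end, and 923 bp from a Standard peak. Scn2b, a sodium channel subunit, had 1.88 and Vcan 1.74. The peaks in Acsl5 (an acyl-CoA synthetase of fatty acid metabolism; chr19:55257622-55257874) and Pald1 (paladin; chr10:61358012-61358237) had the same fold of 1.60 and lay 59707 and 77635 bp from a Standard peak.

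RNA was asked whether genes with an ELS-only peak differ with rearing or with the Dot1l constructs. Library totals, in units of 1000000 counts, ran from 0.314 to 9.8 in Standard GFP, 1.76 to 11.1 in ELS GFP, 2.48 to 7.88 in Standard Dot1l overexpression and 0.462 to 8.8 in ELS Dot1l knockdown, and 3 Standard GFP libraries (replicates 1, 4 and 5) and 1 knockdown library (replicate 7) held under 1000000. Dot1l RNA, the check of the labels, had medians of 36.3 counts per 1000000 (CPM) in Standard GFP, 35.0 in ELS GFP, 37.7 in overexpression and 38.4 in knockdown. Its log2 fold change was 0.33 (SE 0.27) for overexpression and 0.28 (SE 0.27) for knockdown, the latter against its label (edgeR adjusted p = 0.741 and 0.985). Directions below are therefore those of the libraries labelled overexpression and knockdown.

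Of the 2928 genes 2684 were tested, among 14016 genes in all. In ELS GFP against Standard GFP, 0 of these passed an adjusted p of 0.05 in edgeR, as did 0 of all genes (0%), and DESeq2 passed 10 of them and 75 of all (0.6%). At an unadjusted p under 0.05 were 300 of the genes (11.2%), against 11.7% of all genes tested: 68 were higher and 232 lower, where 4% of all genes were higher and 7.73% lower. The ELS and Standard ranges overlapped at all 2684 genes tested with an ELS-only peak, as at all but 1 of the 14016 genes.
By sign alone, 1038 of the 2684 genes were higher and 1646 lower (61.3% lower, against 51.2% of all genes), with a median log2 fold change of -0.08 against -0.01. Genes with a Standard-only but no ELS-only peak were lower in 53.3%, and their median was -0.03. Genes with a line in either list but no ELS-only peak were lower in 53.5%, and genes with no line in either list in 44.1%. Genes of 300 kb or longer with fewer than 10 ELS-only peaks were lower in 61.0%. Genes with an ELS-only peak are longer than others, and the part of length in this lean was not tested. Without Standard GFP replicate 6 the share lower was 54.0% against 46.6% of all genes, and the median -0.03.

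In Standard Dot1l overexpression against Standard GFP, edgeR again passed 0 genes and 293 (10.9%, against 10.9% of all) had an unadjusted p under 0.05. Of these, 92 were higher and 201 lower, where 4.59% of all genes were higher and 6.28% lower. DESeq2 passed 4 genes with an ELS-only peak and 37 of all (0.26%). Lower were 1597 of 2684 (59.5%, against 48.5% of all), at a median of -0.08 against 0.02. Genes with a line in either list but no ELS-only peak were lower in 49.2%, and genes with no line in either list in 42.7%. Without Standard GFP replicate 6, 51.7% were lower, against 43.0% of all, and the median was -0.02. This comparison shares the Standard GFP libraries with the ELS comparison.
In ELS Dot1l knockdown against ELS GFP, which shares the ELS GFP libraries, edgeR passed 0 genes and DESeq2 0 of these genes and 1 of all (0.00322%). An unadjusted p under 0.05 was found for 114 (4.25%, against 6.18% of all, of which 2.23% were higher and 3.95% lower). Of the genes 1318 were higher and 1366 lower, 50.9% lower against 49.8% of all, at a median of -0.01 against 0.00. Without ELS GFP replicate 2, 59 of 2687 had an unadjusted p under 0.05, beside 606 of all 14486 genes tested in that fit. Of the 2687 genes 43.7% were lower, against 46.9% of all, and the median was 0.03 for both.

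For the 134 genes with 10 or more ELS-only peaks, a limit chosen after the data were seen, no difference from other genes was tested. Of 131 with RNA values, 90 (68.7%) were lower in ELS, 109 (83.2%) in overexpression and 85 (64.9%) in knockdown, at medians of -0.10, -0.17 and -0.05. Genes of 300 kb or longer with fewer ELS-only peaks were lower in 61.0%, 72.1% and 67.3%, and the 45 such long genes with none in 48.9%, 62.2% and 66.7%. Without ELS GFP replicate 2 the share lower was 83.2% in ELS, against 53.1% of all genes. In knockdown it was then 42.7%, against 46.9% of all genes, so the direction in knockdown turned on that library. In ELS the share was 59.5% (median -0.05) without the libraries under 1000000 counts, against 47.8% of all genes. It was 61.8% (median -0.05) without Standard GFP replicate 6, against 46.6% of all genes. For the other long genes these settings are not given.

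Sorcs2 RNA ranged from 79.4 to 201 CPM in the 8 Standard GFP libraries with a median of 118, and from 71.9 to 110 CPM in ELS GFP with a median of 89.5. Each of the 8 ELS values was under the Standard median, while the ranges overlapped at the low end. Its log2 fold change was -0.57 (SE 0.23, unadjusted p = 0.0203, adjusted p = 0.2997, edgeR). It was -0.39 without the libraries under 1000000 counts, which include Standard GFP replicates 1 and 5 at 168 and 201 CPM, and ran from -0.31 (limma voom) to -0.61 over the alternatives named here and the left-out replicates 2 and 6. In overexpression it ranged from 75.5 to 229 CPM and in knockdown from 68.7 to 163 CPM.
Slit3 ranged from 207 to 382 CPM in Standard GFP (median 272) and from 182 to 293 CPM in ELS GFP (median 218). Of the ELS libraries 7 lay below the Standard median, and the log2 fold change was -0.32 (SE 0.19, adjusted p = 0.524, edgeR).
Ntm, the gene with most ELS-only peaks, ranged from 668 to 1162 CPM in Standard GFP (median 901) and from 580 to 1499 CPM in ELS GFP (median 725). The ELS range enclosed the Standard range, since 1 ELS library stood above all others, and the log2 fold change was -0.11 (SE 0.20, adjusted p = 0.902, edgeR). Without ELS GFP replicate 2 it was -0.28, and without Standard GFP replicate 6 it was -0.04.
The other 7 of the 10 genes lay between -0.29 (Foxp1) and 0.28 (Gm20388). Of the genes of the 10 highest folds 4 were lower and 6 higher, between -0.46 (St3gal4) and 0.72 (Dixdc1). For St3gal4 1 Standard GFP library held 42.4% of the group's summed CPM, and the median was 16.3 CPM in Standard GFP and 18.9 in ELS GFP. For Dixdc1 1 ELS GFP library held 39.1%, and the medians were 26.4 and 27.5 CPM. Among the 10 genes the smallest adjusted p was 0.454 (edgeR), for Grm5, whose 8 ELS libraries all lay below the Standard median of 474 CPM.

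The genes with the smallest p in the ELS comparison included both Acsl5 and Pald1, which have no Standard line. Acsl5 ranged from 0.603 to 6.21 CPM in Standard GFP (median 3.02) and from 3.84 to 62.0 CPM in ELS GFP (median 8.30). Each of the 8 ELS values was above the Standard median, with ELS GFP replicate 2 far above the rest. The log2 fold change was 2.32 (SE 0.56, adjusted p = 0.120 in edgeR and 0.0162 in DESeq2) and 1.48 without that library.
Pald1 ranged from 6.21 to 203 CPM in Standard GFP (median 15.6) and from 4.03 to 15.7 CPM in ELS GFP (median 10.7). The Standard libraries far above the rest were replicates 1 and 5, at 203 and 102 CPM, both under 1000000 counts. The log2 fold change was -2.24 (SE 0.56, adjusted p = 0.120 in edgeR and 0.0162 in DESeq2) and -0.80 without the libraries under 1000000 counts.
Next on the higher side were Fgf9 (a growth factor; 1.99) and Ube2e3 (a ubiquitin-conjugating enzyme; 1.18), and on the lower side Cwc22 (a splicing factor; -1.60), at adjusted p from 0.120 to 0.143 in edgeR. Of the ELS libraries 8 lay above the Standard median for Ube2e3, and 7 below it for Cwc22. Without ELS GFP replicate 2 Fgf9 was at 0.95 and Ube2e3 at 0.39, and DESeq2 put Ube2e3 at 0.35. Cwc22 passed in DESeq2 (log2 fold change -1.66, adjusted p = 0.0265) and was at -0.92 in edgeR without Standard GFP replicate 6. With limma voom and quality weights, Acsl5 was at 1.02, Pald1 at -0.55 and Cwc22 at -0.45.

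**Figure D5:**
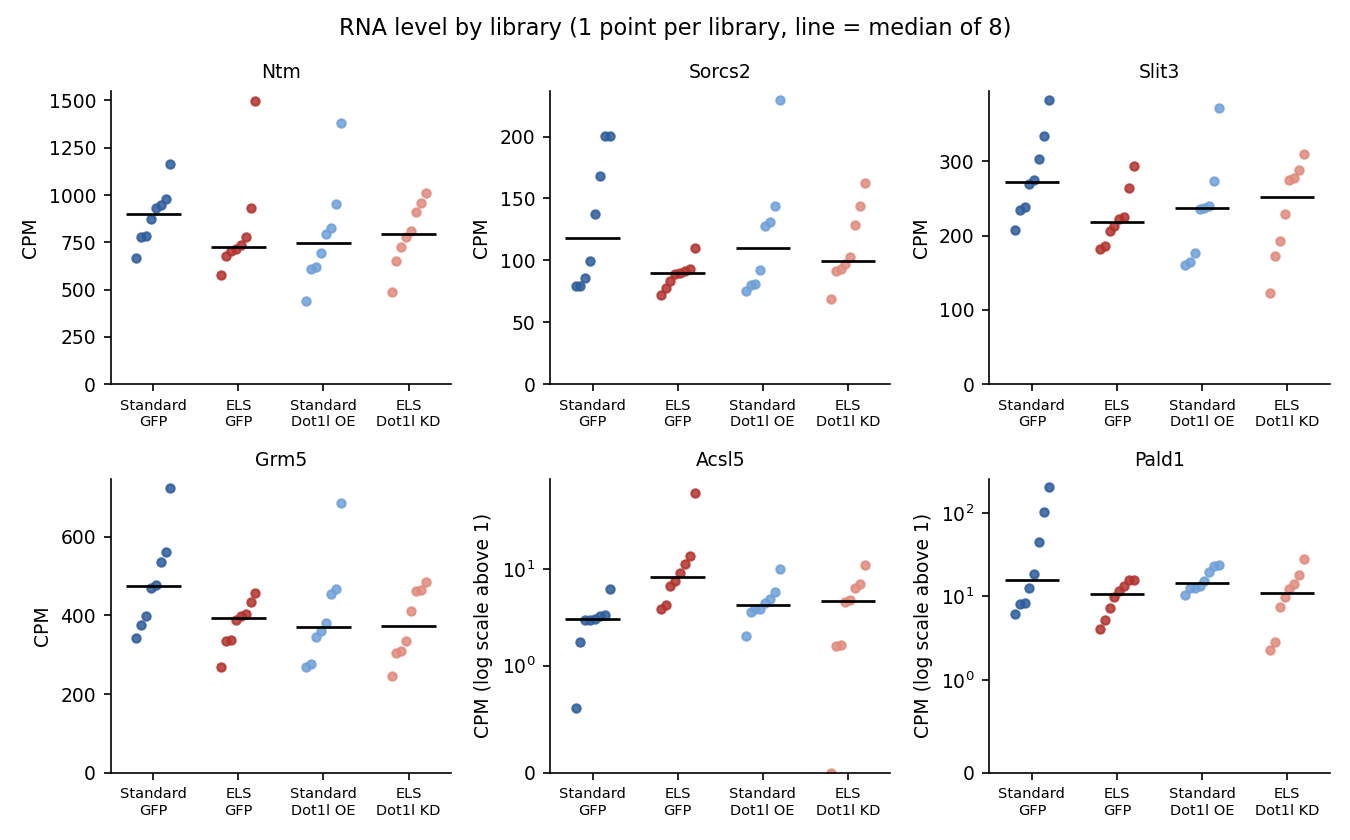
RNA level in CPM of Ntm, Sorcs2, Slit3, Grm5, Acsl5 and Pald1 in the 8 libraries of each group (OE, overexpression; KD, knockdown), 1 point per library sorted by value, with the group median as a line; Acsl5 and Pald1 have an axis that is logarithmic above 1. Groups overlap at each gene, and all 8 ELS GFP points lie below the Standard GFP median for Sorcs2 and Grm5 and above it for Acsl5.

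In overexpression the smallest p were those of Hhat (an acyltransferase for hedgehog; log2 fold change 1.38), Ppm1d (a phosphatase of the p53 pathway; 1.81) and Tmem175 (a lysosomal channel; 2.08) on the higher side, and Sec22a (vesicle traffic; -1.61), 6530409C15Rik (-2.91) and Fbxo25 (a ubiquitin ligase subunit; -2.19) on the lower, at edgeR adjusted p from 0.137 to 0.1504. Without Standard GFP replicate 6 the last 3 were at -0.85, -0.39 and -0.51, and DESeq2 put 6530409C15Rik at -0.40 and Fbxo25 at -0.49. DESeq2 also put Ppm1d at 0.55 and Tmem175 at 0.12. Sec22a had 8 of 8 overexpression libraries below the Standard GFP median of 17.1 CPM. It passed in DESeq2 (adjusted p = 0.0159) and in edgeR without the libraries under 1000000 counts (adjusted p = 0.0366). Tmem175 rested on 1 library, at 233 CPM where the group median was 10.4 CPM.
In knockdown Elovl2 (fatty acid elongation; 2.85), Ldlrad3 (a low-density lipoprotein receptor relative; 1.40) and Pdia5 (protein folding; 1.76) were on the higher side, and 3110009E18Rik (-3.09), Hsdl1 (-2.35) and Farsb (a tRNA synthetase subunit; -1.40) on the lower, all at an adjusted p of 0.335 in edgeR. Without the libraries under 1000000 counts, which include knockdown replicate 7, Elovl2 was at 0.51, Ldlrad3 at 0.64 and Pdia5 at 0.88. Without ELS GFP replicate 2, 3110009E18Rik was at -0.86, Hsdl1 at -0.14 and Farsb at -0.60. A single library held 84.4% of the group's summed Elovl2 CPM in knockdown, and 82.2% and 82.0% of that of 3110009E18Rik and Hsdl1 in ELS GFP.

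By function, 0 genes with an ELS-only peak passed in any list or comparison in edgeR. DESeq2 passed Gabra4, a GABA receptor gene with 5 ELS-only peaks, in overexpression (log2 fold change -0.84, adjusted p = 0.0470). Of the 11 medium spiny neuron markers with an ELS-only peak, 10 were lower in ELS, at a median of -0.56; of all 15 such markers tested 14 were lower, at a median of -0.63. Markers of other cells were also lower in ELS: 9 of 9 of astrocytes (median -0.67), 13 of 14 of oligodendrocytes (-0.42) and 9 of 10 of microglia (-0.52). D1-type markers were lower in 5 of 7 (-0.83), D2-type markers in 4 of 6 (-0.19) and markers of oligodendrocyte precursors in 3 of 6 (-0.29). Markers of endothelial cells were lower in 3 of 10 (0.17), of interneurons in 4 of 10 (0.37) and of cortical excitatory neurons in 2 of 6 (0.18). Pde10a was at -0.63 (SE 0.29, adjusted p = 0.366) and Gnal, the G protein subunit behind dopamine receptors, at -0.75 (SE 0.31, adjusted p = 0.294). Summed over the 15 shared medium spiny neuron markers, libraries ran from 1626 to 4184 CPM in Standard GFP (median 2296) and from 1544 to 3079 in ELS GFP (median 1963). The sum over the 6 D2-type markers tested had a median of 594 CPM in Standard GFP and 401 in ELS GFP. Over the 7 D1-type markers tested it was 80.5 and 83.2 CPM. In these libraries fewer cells of a type and less RNA per cell cannot be told apart, and the part of these markers in the other results was not tested.
Of the 10 phosphodiesterase genes with an ELS-only peak 7 were lower in ELS, at a median of -0.34; Pde4b, with 24 ELS-only peaks, was at -0.53 (SE 0.20, adjusted p = 0.224). Synaptic adhesion genes showed no such lean in ELS, with 14 higher and 14 lower, but 25 of 28 were lower in overexpression and 24 of 28 in knockdown, at medians of -0.17 and -0.12; of all 36 such genes tested 30 and 29 were lower, at the same medians, where 48.5% and 49.8% of all genes were lower. All 14 glutamate receptor genes with an ELS-only peak were lower in overexpression, at a median of -0.18, as were 21 of all 24 tested, at a median of -0.17. Gene length was not taken into account in either list. Genes of 300 kb or longer with fewer than 10 ELS-only peaks were lower in 72.1% in overexpression and 67.3% in knockdown. The list counts are given for the main fit only, not without ELS GFP replicate 2 or Standard GFP replicate 6. Of the 10 DOT1L partners and elongation factors 8 were lower in ELS, at a median of -0.10, with Aff3 at -0.04 and Mllt10 at -0.07.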

How the data were processed

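The members and gene lists were chosen with earlier results of these data known. The RNA values are raw counts per gene ID in 32 libraries, as deposited by the authors. The submitters' processing notes name HISAT2, featureCounts, FastQC and DESeq2 and build mm10, without versions or roles, and no source used here says whether counting used strand. Each deposited peak carries the authors' fold enrichment, a ratio, and their q-value. No source used here names the peak caller, its background, how libraries were combined, or whether starts count from 0. Annotation lines (432179 ELS, 475994 Standard) were reduced to distinct peaks and compared with bedtools 2.31.1 at 1 bp. A peak on several genes is described by its longest gene without a Gm number where there is one. Promoter windows and miRNA hairpins are from RefSeq (GRCm38.p6). No reference genome was used here, so other peak sequences are not shown.

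The counts went into edgeR 4.0.16 under R 4.3.3 (TMM, filterByExpr, robust quasi-likelihood test, Benjamini-Hochberg over 14016 genes, threshold 0.05) in 1 fit of the 32 libraries with 28 residual degrees of freedom; a prior count of 2 was used for log2 CPM. SE is the log2 fold change over the square root of F. Symbols matched 52403 of 52636 gene IDs. On simulated counts for the ELS comparison (14016 genes, 200 changed 4-fold) 79.5% were recovered, with 9 false calls. The simulated counts had the same spread for all genes and no outlying libraries were added, unlike the real counts. The 79.5% is therefore a check of the fit and not its power in the real data. No pair of libraries was a copy of another. Alternatives were DESeq2 1.42.0, limma 3.58.1 (voom), RLE factors, no filter, 2 groups only, a title-number block and left-out libraries. Left out singly were only Standard GFP replicate 6 and ELS GFP replicate 2, and together the libraries under 1000000 counts. Overexpression replicate 1, with the lowest TMM factor (0.53), was kept in each fit that used its group.

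Named were the 10 peaks of highest fold, the 10 genes with most peaks, the 3 genes per direction and contrast with the smallest p (none passed; 1 of them is not reported here), the nearest, farthest and widest peaks, genes with no Standard line, leading genes of each list, and Dot1l. The 4 printed windows, the runs, the gene length classes and the limit of 10 peaks per gene were chosen after their values were seen.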

Additional observations from a re-analysis of the deposited data

Results flagged for a closer look

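Of 112 groups of 8 libraries looked at (28 genes in 4 groups), 17 had a library whose gap to its nearest neighbour took an unusually large part of the group's range (15.2%, where about 1 in 20, or 5%, comes by chance). ELS GFP replicate 2 was the highest for Acsl5 (62.0 CPM, group median 8.30), Farsb (118.8), 3110009E18Rik (155.6), Ube2e3 (284.1) and Hsdl1 (182.1), and the lowest for 6530409C15Rik (0.646). Standard GFP replicate 6 was the highest for 6530409C15Rik (183.6), and replicate 5 was the lowest for Dot1l (10.6) and Elovl2 (0). Overexpression replicate 1 was the highest for Tmem175 (233.4) and Ppm1d (93.3), replicate 2 for Ldlrad3 (85.4) and replicate 8 for Foxp1 (324.3). In knockdown, replicate 7 was the highest for Ldlrad3 (310 CPM), and the lowest were replicate 4 for Tmem175 (4.01), replicate 6 for Farsb (2.11) and replicate 5 for Ube2e3 (16.0). Most of these genes were picked by a small p, and the part of the single libraries in that choice was not tested.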

How the results depend on the processing

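The number of ELS-only peaks was 13888 when a Standard peak had to cover 50% of the ELS peak, 2469 with no Standard peak within 1000 bp, 3374 with both lists at or above their common median fold of 1.94 and, in an alternative added after seeing the data, 736 with that limit on the ELS-only peaks alone; the other 6 settings gave 7415 to 9013. DESeq2 called 75, 37 and 1 genes in the ELS, overexpression and knockdown comparisons (10, 4 and 0 with an ELS-only peak) where edgeR called 0. Without libraries under 1000000 counts edgeR called 7, 18 and 0 (0, 3 and 0), the 3 being Sec22a, 6530409C15Rik and Pml. The other settings called 0. With a block on the title number, which the labels do not explain, 0 genes were called and the ELS median of genes with an ELS-only peak was -0.06. Genes at an unadjusted p under 0.05 in ELS (edgeR) fell from 1644 to 915 of all, and from 300 to 169 with an ELS-only peak. Between groups the mean correlation was 0.03 for the same number and -0.01 for another. Number 2 was that of Standard GFP replicates 4, 5 and 6, ELS GFP replicate 2, overexpression replicates 1 and 2 and knockdown replicates 6 and 7. The part of the number in the results was not tested.

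Of 270 gene values under alternatives, 9 changed sign, each small and far from the threshold: Csmd1 in ELS -0.0593 (voom), Celf2 -0.0338 without ELS GFP replicate 2 (0.0654 without Standard GFP replicate 6) and -0.0132 (voom), Dlg2 0.0120 (block), 0.119 without Standard GFP replicate 6 (-0.132 without ELS GFP replicate 2) and 0.0486 (voom), Dot1l in ELS -0.0546 without the shallow libraries and -0.0406 (voom), and Dot1l in overexpression -0.0137 (voom). The cause was not tested. The share of lower genes among those with an ELS-only peak ran from 54.0% to 66.3% in ELS and from 51.7% to 61.9% in overexpression over the fits of all these genes, above that of all genes in each setting; in knockdown it ran from 43.7% to 56.3%.

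With 1 list per group the peaks carry no replicate error, and the signal of the other group at an ELS-only peak was not analysed here.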

Other observations

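For 2 further gene lists the share with an ELS-only peak is given beside the 42.7% over all genes with an ELS gene-body line. Of 22 genes of RNA splicing and export with an ELS gene-body line, 14 (63.6%) held 128 ELS-only peaks, beside 518 Standard-only, led by Celf2 with 32, Rbfox1 (a neuronal splicing regulator) with 26, Msi2 (an RNA-binding protein of the Musashi family) with 18 and Rbfox3 (the neuronal marker NeuN) with 11. Of 22 genes of intracellular transport and motors 14 (63.6%) held 43 peaks, beside 255 Standard-only, with 9 in Ank2 (ankyrin 2, a membrane anchor of the cytoskeleton), 7 in Map2 (a dendritic microtubule protein) and 5 in Ank3 (ankyrin 3). Gene length was not taken into account and no enrichment was tested.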
